A study of Caenorhabditis elegans with 245 samples.

Results

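The 10 genes described here encode the cyclins and protein kinases that drive the embryonic cell cycle of Caenorhabditis elegans: the B-type cyclins cyb-1, cyb-2.1, cyb-2.2 and cyb-3, the E-type cyclin cye-1, the cyclin-dependent kinases cdk-1 and cdk-2, the Polo-like kinase plk-1, and the Aurora kinases air-1 and air-2. They were chosen by name and not by a rule on their measured values, though with earlier results of these data known. They are 10 of the 46725 genes of the mRNA tables. All 10 were also found among the endo-siRNA rows of the small RNA tables, where a row counts small RNAs antisense to the transcript of a gene.

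The series held 245 samples in 22 conditions and asked whether small RNAs in sperm, above all tRNA-derived RNAs (tDRs), act on the progeny. All animals carried fog-2(q71), which leaves hermaphrodites without sperm of their own, so they are called females, and "WT" denotes fog-2(q71) with an intact rnst-2, the RNase T2 gene of the worm. Single 2-cell and 8-cell embryos had WT mothers. They were sired by rnst-2 del/del males (the frameshifting pen1 allele; 26 8-cell and 25 2-cell embryos) or by WT males (20 8-cell and 30 2-cell embryos). In the injection experiment, all embryos had rnst-2 del/del fathers and mothers whose germline had been injected. The injected material was antisense RNA to tDR-Gly-GCC and tDR-Glu-CTC with his-72::gfp RNA (anti-tDR; 20 8-cell and 23 2-cell embryos), or the his-72::gfp RNA alone (GFP; 18 8-cell and 26 2-cell embryos). Adult F1 females and males were sired by rnst-2 mutant or WT males, with 3 pools of about 50 worms per group, and the F1 females were virgins. The genotype labels of the rnst-2-sired F1 themselves read rnst-2(pen4)/+, where pen4 (cat) is the catalytic-dead allele. A figure legend of the study instead names the deletion allele for their fathers. With WT mothers, rnst-2-sired embryos and F1 are themselves heterozygous for rnst-2. The sire and the progeny's own genotype therefore cannot be told apart between rnst-2-sired and WT-sired groups. Small RNA libraries of 18 to 40 nt came from del/del and del/+ males, cat/cat and cat/+ males, WT males and sperm, cat/cat males and sperm, and del/del and del/+ females. The pen4 allele also carries a GFP::3xFLAG tag, and heterozygotes of both alleles carry the balancer tmC16. A second header line over the control columns of the adult F1 table reads "hetcat", while the labels of these samples say WT. They are called WT-sired here after the labels.

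In animal cells, CDK-1 bound to a B-type cyclin drives entry into mitosis, and CDK-2 bound to cyclin E promotes DNA replication. PLK-1 and AIR-1, the worm's Aurora A, act at centrosomes and on mitotic entry, and AIR-2, the worm's Aurora B, acts on chromosomes and the central spindle. Oocytes and early embryos divide with mRNA and protein supplied by the mother, and the mRNA pool changes as maternal transcripts are removed and zygotic transcription begins. Endo-siRNAs of C. elegans are made antisense to mRNAs and are loaded onto Argonaute proteins, several of which act in the germ line.

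The members lie on 4 chromosomes in the RefSeq annotation of WBcel235, with cyb-1 and cyb-2.1 on IV, cyb-3 and air-1 on V, cdk-1 and plk-1 on III, and cyb-2.2, cye-1, cdk-2 and air-2 on I. The paralogs cyb-2.1 and cyb-2.2 share much sequence. Of the 933 22-base windows of the cyb-2.1 coding sequence, 541 (58.0%) also occurred in that of cyb-2.2. At 50 bases, nearer to an mRNA read, 263 of 905 windows (29.1%) were shared. Reads and small RNAs of these 2 genes can be assigned to the wrong copy, so their separate values are uncertain. Their summed mRNA is given for embryos of the sire experiment and for F1 females. All tests and counts of calls below keep the 2 genes apart, and their sum was not tested. The next most alike pair, cyb-1 and cyb-2.1, shared 31 of 1065 22-base windows (2.91%) and no 50-base window.

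The mRNA values are TPM (transcripts per 1000000 transcripts), which are comparable between genes of different length but do not keep the read depth, so no counting interval can be given. Embryos varied in quality. Between 3153 and 12478 genes were above 0 TPM in an embryo, and rRNA took 8136 to 519164 TPM. Summed zygotic markers were 63.4 to 1333 TPM in 8-cell and 0 to 90.4 TPM in 2-cell embryos of the sire experiment. In the injection experiment they were 22.7 to 1312 TPM in 8-cell and 0 to 334 TPM in 2-cell embryos. The ranges of the stages overlapped in both experiments. Embryos were collected on 4 days that the labels do not give. Embryos of 1 day may share parents, so p-values over embryos may be too small. In adult F1, summed sperm markers were at 0.59 to 5.73 TPM in females and 46543 to 52128 TPM in males, and oocyte markers at 4368 to 6584 TPM in females and 58.5 to 147 TPM in males. The total count of a small RNA library was between 4976236 and 51191372.

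The mitotic cyclins and cdk-1 were the most abundant members in embryos, and the S-phase pair the least. cyb-3, the B-type cyclin on which timely chromosome segregation in the worm embryo depends, was highest in every group. In 8-cell embryos its median was 1141 TPM (161 to 1582) when sired by rnst-2 del/del males and 1110 TPM (898 to 1530) when sired by WT males. In 2-cell embryos the medians were 861 TPM (241 to 1145) and 856 TPM (286 to 1218) for the same sires. cyb-3 exceeded the gene next in order in every embryo of these 4 groups except 1 of the 30 WT-sired 2-cell embryos.

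cyb-1, another B-type cyclin of mitosis, came second. Its medians were 444 TPM (9.36 to 654) in rnst-2-sired and 468 TPM (323 to 625) in WT-sired 8-cell embryos. In 2-cell embryos it had medians of 317 TPM (20.4 to 441) and 314 TPM (13.5 to 1499) for the same sires. It was above the next gene in order, cdk-1 or, in WT-sired 2-cell embryos, cyb-2.2, in 22 of 26, 16 of 20, 19 of 25 and 19 of 30 embryos in that order, so the levels of these neighbours overlapped. cdk-1, the mitotic kinase, had medians of 343 TPM (41.9 to 460) and 355 TPM (241 to 572) in rnst-2-sired and WT-sired 8-cell embryos, and of 255 TPM (32.1 to 787) and 226 TPM (18.4 to 428) in 2-cell embryos.

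The cyb-2 genes, plk-1 and air-1 formed a middle group whose order differed between groups of embryos. Summed over both cyb-2 genes, the medians were 219 and 217 TPM in rnst-2-sired and WT-sired 8-cell embryos, against 366 and 351 TPM in the 2-cell embryos. plk-1 had medians of 131 TPM (2.27 to 218) and 147 TPM (74.9 to 190) in 8-cell embryos of the 2 sires and of 126 TPM (31.04 to 172) and 132 TPM (16.5 to 203) in 2-cell embryos. air-1 had medians of 111 and 116 TPM at the 8-cell and of 147 and 144 TPM at the 2-cell stage. air-2 was lower, with medians of 59.0 and 66.9 TPM at the 8-cell and 53.0 and 49.3 TPM at the 2-cell stage.

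cye-1 and cdk-2 were near the limit of what a single embryo showed. The median of cye-1 was 5.98 TPM in rnst-2-sired and 7.27 TPM in WT-sired 8-cell embryos, and 14.7 and 11.2 TPM in 2-cell embryos, with 3 to 5 embryos per group at 0. For cdk-2 the medians were 5.14 and 7.98 TPM at the 8-cell and 7.44 and 4.17 TPM at the 2-cell stage, with 3 to 9 embryos per group at 0. The order of these 2 genes was not settled, since cye-1 exceeded cdk-2 in 7 of 26 rnst-2-sired 8-cell embryos and was below it in 11 of 20 WT-sired ones.

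**Figure D1:**
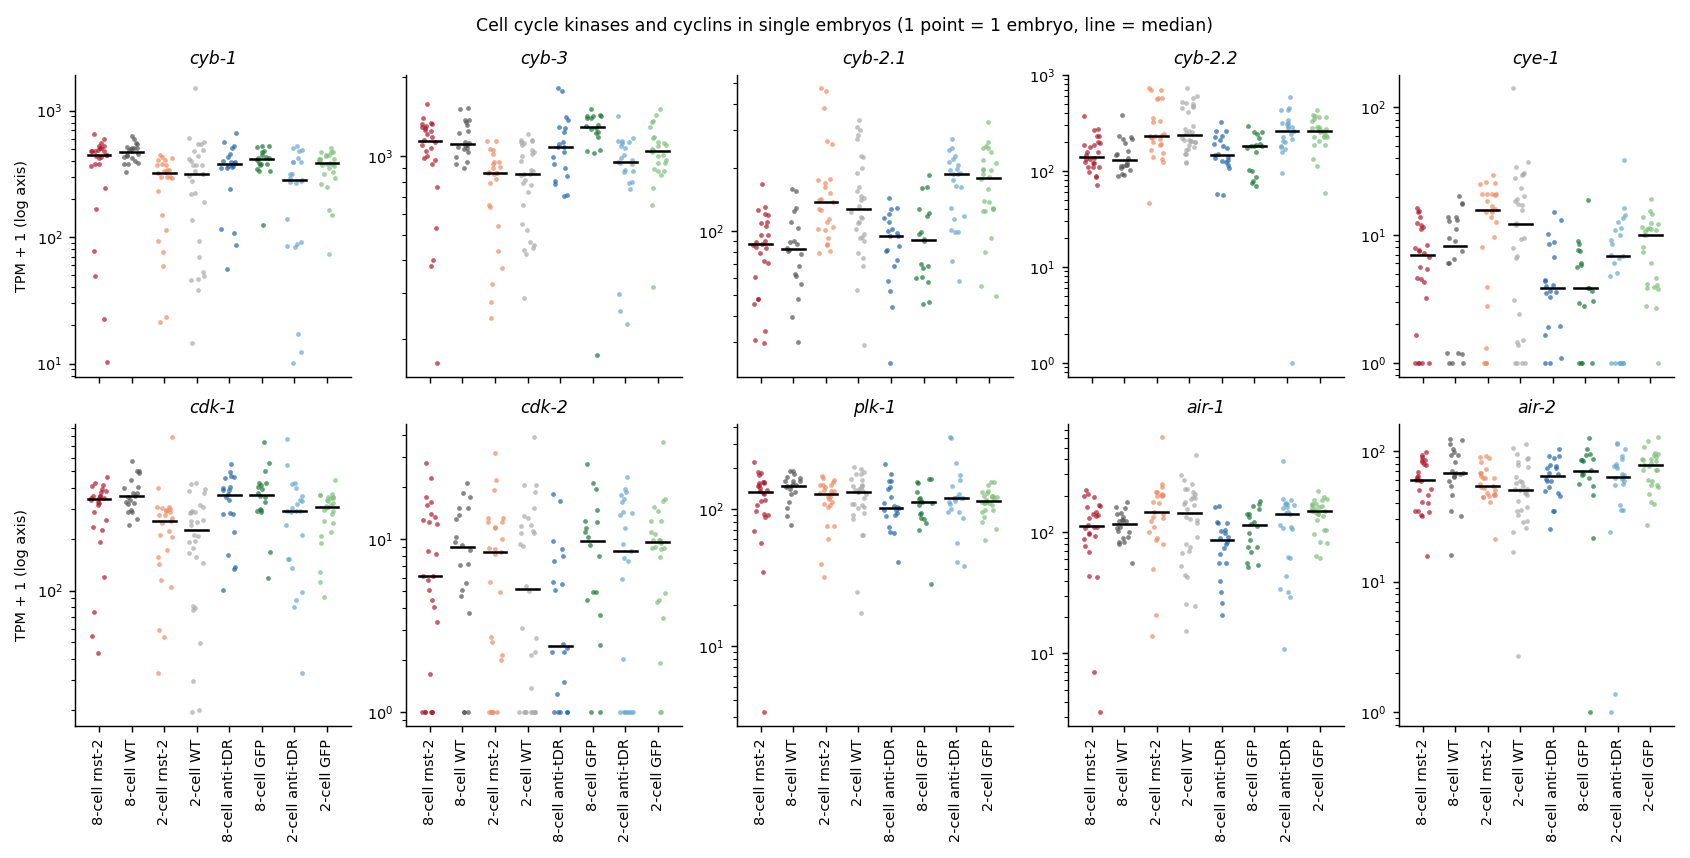
Level of each member in single embryos, as TPM plus 1 on a log axis, with 1 panel per gene, 1 point per embryo and a line at the median of each group. cyb-3 had medians of 856 to 1293 TPM over the 8 groups, while the medians of cye-1 and cdk-2 lay below 15 TPM. Single WT-sired 2-cell embryos reached 140 TPM of cye-1 and 37.7 TPM of cdk-2. cyb-1 spread from 9.36 to 654 TPM in rnst-2-sired and from 323 to 625 TPM in WT-sired 8-cell embryos.

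Among the B-type cyclins, cyb-3 made up most of the mRNA at both stages by group medians. Its median share of the summed TPM of the 4 genes was 62.6% in rnst-2-sired and 62.5% in WT-sired 8-cell embryos, and 56.5% and 55.8% in 2-cell embryos. In the injection experiment, its median share was 65.4% (anti-tDR) and 65.1% (GFP) at the 8-cell and 56.4% and 54.9% at the 2-cell stage. cyb-1 took medians of 18.4% to 24.9% over the 8 groups. These shares are within a sample and do not depend on how the sample was scaled, but they varied between embryos. In WT-sired 2-cell embryos the share of cyb-3 was 21.02% to 73.5%. In the 11 of these over 300000 TPM of rRNA, medians were 468 TPM for cyb-3, 493 for cyb-2.2 and 51.8 for cyb-1. In the other 19 they were 1003, 201 and 401 TPM. The balance of these genes thus differed with rRNA content. Its part in the shares and in their stage difference was not tested.

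From the 2-cell to the 8-cell stage, the 4 B-type cyclins moved in opposite directions in WT-sired embryos. cyb-1, cdk-1 and cyb-3 rose and cyb-2.1 and cyb-2.2 fell, and all 20 8-cell embryos were above the 2-cell median for each of the 3 that rose. The rise was 1.11 ± 0.33 for cyb-1 (SE, on the log2(TPM + 1) scale used for all differences below; adjusted p = 0.00773), 1.09 ± 0.28 for cdk-1 (adjusted p = 0.00173) and 0.58 ± 0.14 for cyb-3 (adjusted p = 0.000776; limma over every gene averaging 5 TPM or more, Benjamini-Hochberg). cyb-2.1 had a median of 81.3 TPM (29.2 to 158) in 8-cell and 126 TPM (28.3 to 335) in 2-cell embryos, and fell by 0.73 (SE 0.22, limma adjusted p = 0.00929). cyb-2.2 had a median of 128 TPM (88.7 to 386) in 8-cell and 235 TPM (121 to 726) in 2-cell embryos, and fell by 0.91 (SE 0.20, limma adjusted p = 0.000275), with 1 of 20 8-cell embryos above the 2-cell median. Of the 10 members 5 passed, and of all genes tested 35.2% passed. The median difference was 0.43 over the members and 0.37 over all genes.

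In these embryos the stage effect moved with rRNA content. Over 300000 TPM of rRNA was found in none of the 20 WT-sired 8-cell embryos and in 11 of the 30 WT-sired 2-cell embryos. In these 11, cyb-1 was at 13.5 to 223 TPM and cdk-1 at 18.4 to 191 TPM, against 187 to 1499 and 165 to 428 TPM in the other 19. cyb-2.2 went the other way, with 207 to 726 TPM in the 11 and 121 to 292 TPM in the 19. The part of rRNA in the stage effect was not tested as such, but the comparison was repeated without the embryos over that limit. cyb-1 then differed by 0.14 (limma adjusted p = 0.488) and cyb-2.1 by -0.31 (adjusted p = 0.224), and both lost their call. cdk-1 (0.36, adjusted p = 0.0168), cyb-3 (0.27, adjusted p = 0.0132) and cyb-2.2 (-0.44, adjusted p = 0.0236) passed in that fit too, and air-1 (-0.76, adjusted p = 7.53e-05) and cye-1 (-1.62, adjusted p = 0.00723) fell. Of all 6605 genes in that fit, 938 were called higher and 1443 lower.

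In rnst-2-sired embryos, the stage comparison called the cyb-2 genes alone. cyb-2.1 had a median of 86.0 TPM (28.6 to 166) in 8-cell and 137 TPM (78.4 to 473) in 2-cell embryos, a fall of 0.93 (SE 0.21, limma adjusted p = 0.000422), with 1 of 26 8-cell embryos above the 2-cell median. cyb-2.2 had 140 TPM (71.2 to 370) in 8-cell and 230 TPM (44.9 to 727) in 2-cell embryos, a fall of 0.77 (SE 0.22, limma adjusted p = 0.00723) that missed the threshold under median-of-ratios scaling (-0.68, adjusted p = 0.0672). cyb-1, cyb-3 and cdk-1 differed by 0.45, 0.42 and 0.37 (limma adjusted p = 0.437, 0.118 and 0.346). The share of all genes called was 21.7%. Here 5 of 26 8-cell and 6 of 25 2-cell embryos had over 300000 TPM of rRNA. Without them 6 members passed, with cyb-1 (0.56, limma adjusted p = 0.00253) and cyb-3 (0.49, adjusted p = 0.000685) higher at the 8-cell stage and cyb-2.1 (-0.64), cyb-2.2 (-0.52), cye-1 (-1.21) and air-1 (-0.43) lower. Of all 6699 genes in that fit, 949 were called higher and 1188 lower. The difference between the stage effects of the 2 sires was tested by an interaction term. It called no member, with none at an unadjusted p under 0.05, and 0.0304% of all genes. The largest departure was that of cdk-1 (-0.72, p = 0.0658, limma adjusted p = 0.876).

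In the injection experiment cyb-2.1 was lower at the 8-cell stage in both arms. Its median was 94.0 TPM (22.97 to 143) in anti-tDR 8-cell embryos and 185 TPM (57.5 to 272) in anti-tDR 2-cell embryos, a fall of 0.90 (SE 0.22, limma adjusted p = 0.00201), and no 8-cell embryo was above the 2-cell median. After GFP alone it was at 89.9 TPM (44.4 to 185) in 8-cell and 178 TPM (48.6 to 327) in 2-cell embryos, a fall of 0.83 (SE 0.20, limma adjusted p = 0.00101). cyb-2.2 fell by 0.67 after GFP (SE 0.20, limma adjusted p = 0.00702) and differed by -0.41 ± 0.40 (SE) after anti-tDR (adjusted p = 0.539). cye-1 was called after GFP as well (-0.94, limma adjusted p = 0.0353), with medians of 2.86 TPM in 8-cell and 9.09 TPM in 2-cell embryos, but this call was lost under 6 alternatives. Of all genes, 29.7% passed after GFP and 12.8% after anti-tDR. The interaction of stage and injection called no member, none of them at an unadjusted p under 0.05, and 0.0% of all genes.

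**Figure D2:**
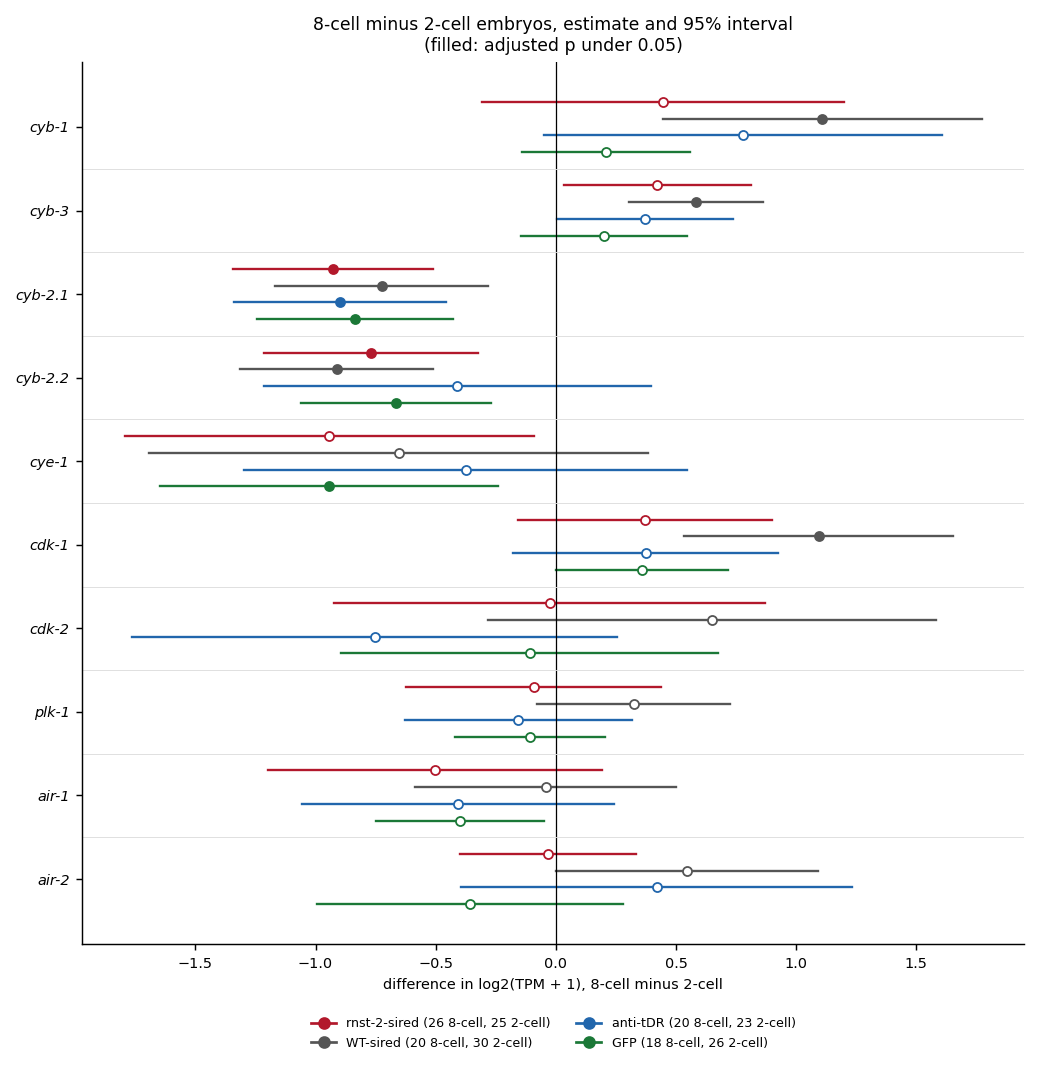
Difference in log2(TPM + 1) between 8-cell and 2-cell embryos for each member (points, 8-cell minus 2-cell) with 95% intervals, for the 4 kinds of cross or injection, filled where the adjusted p was under 0.05. cyb-2.1 lay below 0 and was called in all 4 comparisons (-0.73 to -0.93), while the rises of cyb-1, cdk-1 and cyb-3 were called in WT-sired embryos, a difference from rnst-2-sired embryos that the interaction did not call.

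The sire made no difference to these mRNAs that could be called in embryos. In 2-cell embryos the rnst-2-sired minus WT-sired difference was between -0.11 (cyb-3) and 0.30 (cdk-2), none of the 10 had an unadjusted p under 0.05, and the 95% intervals of single genes reached from -0.78 to 1.22 (limma, smallest adjusted p = 0.999, with 0.0% of all genes called). In 8-cell embryos cdk-1 (-0.48, p = 0.0311) and cyb-1 (-0.67, p = 0.0469) had unadjusted p-values under 0.05, both with a limma adjusted p of 0.618. The intervals there reached from -1.33 to 0.80. Of all genes 0.0438% passed, and 530 of 6857 had an unadjusted p under 0.05. The low cyb-1 values again lay in embryos rich in rRNA. The 5 rnst-2-sired 8-cell embryos over 300000 TPM had 9.36 to 165 TPM of cyb-1, and the other 21 had 244 to 654 TPM.

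Antisense injection called no member at either stage. The largest 2-cell difference was that of cyb-1, with a median of 282 TPM (9.11 to 521) after anti-tDR and 381 TPM (72.6 to 502) after GFP, a difference of -0.93 ± 0.35 (SE, p = 0.00931, limma adjusted p = 0.0852). Of the 23 anti-tDR embryos, 8 were above the GFP median. Over 300000 TPM of rRNA was present in 6 anti-tDR embryos, which had 9.11 to 89.9 TPM of cyb-1, and in 2 GFP embryos. Without them the difference was -0.35 (limma adjusted p = 0.527), whereas a fit over all 4 injected groups called it (adjusted p = 0.0359). All genes together had a median difference of -0.53 in this comparison, and the members one of -0.36. Of all genes 0.437% were called, and 1918 of 6173 had an unadjusted p under 0.05. At the 8-cell stage, 9 members were tested, and 238 of all 6486 genes had an unadjusted p under 0.05. cdk-2 had the lowest unadjusted p, with medians of 1.41 TPM after anti-tDR and 8.78 TPM after GFP (-1.16, p = 0.0169, limma adjusted p = 1.0), and 0.0% of all genes were called.

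**Figure D3:**
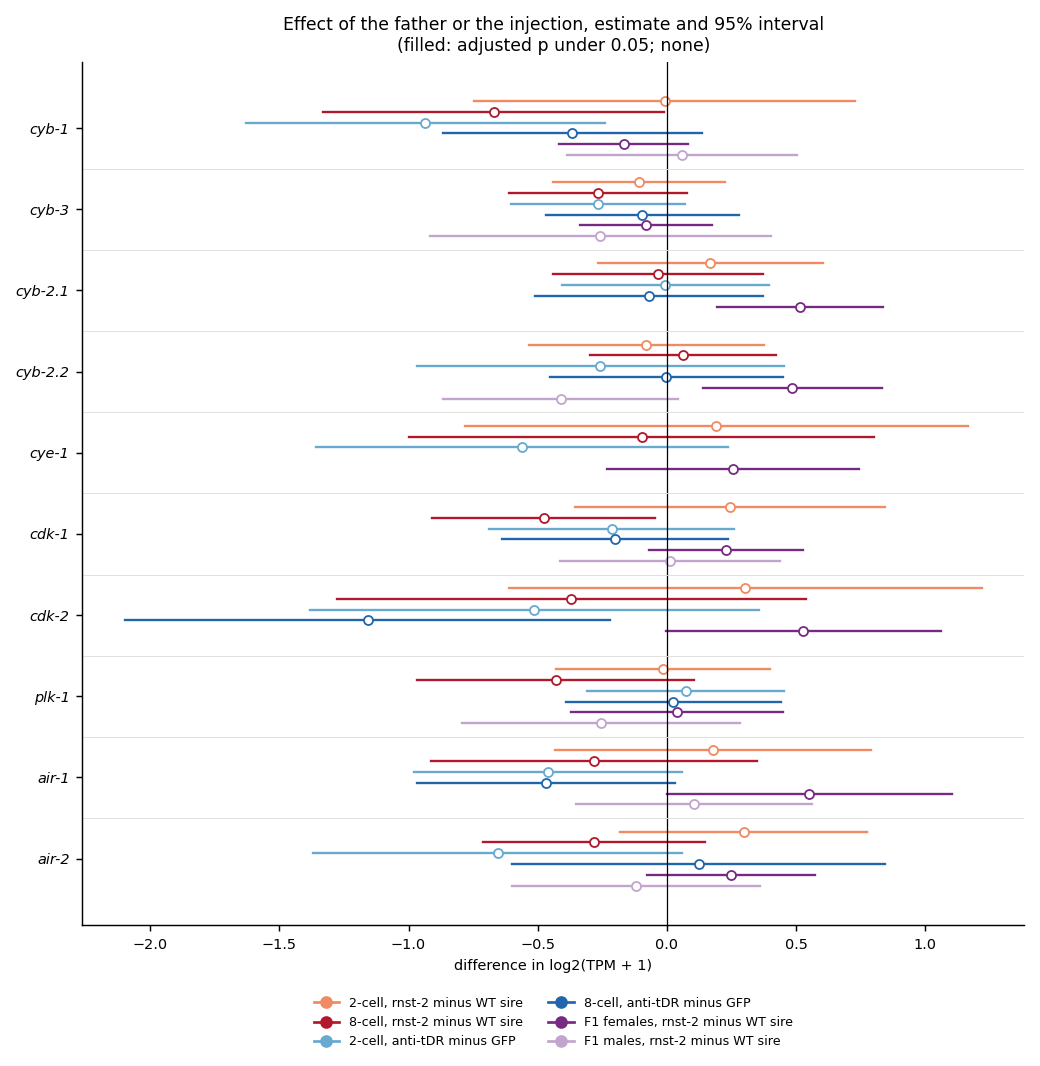
Difference in log2(TPM + 1) of each member between rnst-2-sired and WT-sired progeny (2-cell and 8-cell embryos, F1 females, F1 males) and between anti-tDR and GFP embryos (2-cell and 8-cell), with 95% intervals. No point is filled, since no adjusted p was under 0.05. In F1 females the 2 cyb-2 genes (0.52 and 0.49), air-1 and cdk-2 lay above 0 by similar amounts, while cyb-1 and cyb-3 lay below 0. The median over all genes was 0.22 there.

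In adult F1 females the cyb-2 genes were higher in all 3 rnst-2-sired pools than in any WT-sired pool. cyb-2.1 was at 129, 130.5 and 149 TPM in rnst-2-sired females, against 79.1, 104 and 104 TPM in WT-sired females. cyb-2.2 was at 233, 228 and 254 TPM against 137, 180 and 199 TPM. Summed over both genes, rnst-2-sired females had 358 to 404 TPM and WT-sired females 216 to 303 TPM. The rnst-2-sired pools also had more genes above 0 TPM (15417 to 15510, against 13804 to 14273 in WT-sired pools) and lower summed oocyte markers (4368 to 5112 TPM, against 5172 to 6584 TPM), and 1 of them held 26919 TPM of rRNA, against at most 604 TPM in WT-sired pools. Their part in the result was not tested. The differences of 0.52 ± 0.14 and 0.49 ± 0.15 (SE, n = 3 each) had limma adjusted p-values of 0.0589 and 0.0764, and neither was called. Values of 3 other members did not overlap. How many of all genes had values that did not overlap was not counted. By limma, 7.18% of all genes were called (527 higher and 21 lower), and 2444 of 7636 had an unadjusted p under 0.05. This depended on the scaling. With median-of-ratios scaling 3 of 7605 genes were called higher and 0 lower, and the median over all genes moved from 0.22 to -0.05. air-1 was at 138, 165 and 187 TPM in rnst-2-sired females, against 75.9, 128 and 136 TPM in WT-sired females (0.55, limma adjusted p = 0.157). cdk-2 was at 25.31, 28.12 and 25.04 TPM against 12.1, 19.6 and 23.6 TPM (0.53, adjusted p = 0.158), and cdk-1 at 215, 216 and 226 TPM against 156, 200 and 209 TPM (0.23, adjusted p = 0.259).

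The remaining B-type cyclins of F1 females did not share this direction. cyb-1 was at 127, 134 and 117 TPM in rnst-2-sired females, against 129, 149 and 147 TPM in WT-sired females, and cyb-3 at 485, 465 and 444 TPM against 429, 513 and 539 TPM. As a share of the 4 B-type cyclins, cyb-3 made up 46.0% to 49.7% in rnst-2-sired females and 54.3% to 55.4% in WT-sired females. cyb-2.2 made up 23.8% to 26.4% in rnst-2-sired and 17.7% to 20.1% in WT-sired females. These shares did not overlap and were not tested. No member was called and 2 of 10 had an unadjusted p under 0.05, beside 2444 of all 7636 genes. The median difference was 0.25 over the members and 0.22 over all genes. With the replicate number as a block, cyb-2.1, cyb-2.2 and air-1 passed (limma adjusted p = 0.0388, 0.0474 and 0.0422), although the pairs did not meet the criterion for pairing.

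In F1 males, 7 members reached the 5 TPM needed for the test, and none was called or had an unadjusted p under 0.05. Their differences lay between -0.41 (cyb-2.2) and 0.11 (air-1), every limma adjusted p was 0.9996, and 0.0426% of all genes were called. The interaction of sex and sire called no member, and 0.0579% of all genes, while 1151 of 8642 genes had an unadjusted p under 0.05. Its unadjusted p was under 0.05 for cyb-2.2 (0.90, p = 0.00207, limma adjusted p = 0.166), cyb-2.1 (0.78, p = 0.0178, adjusted p = 0.26) and cye-1 (0.77, p = 0.0214, adjusted p = 0.28).

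**Figure D4:**
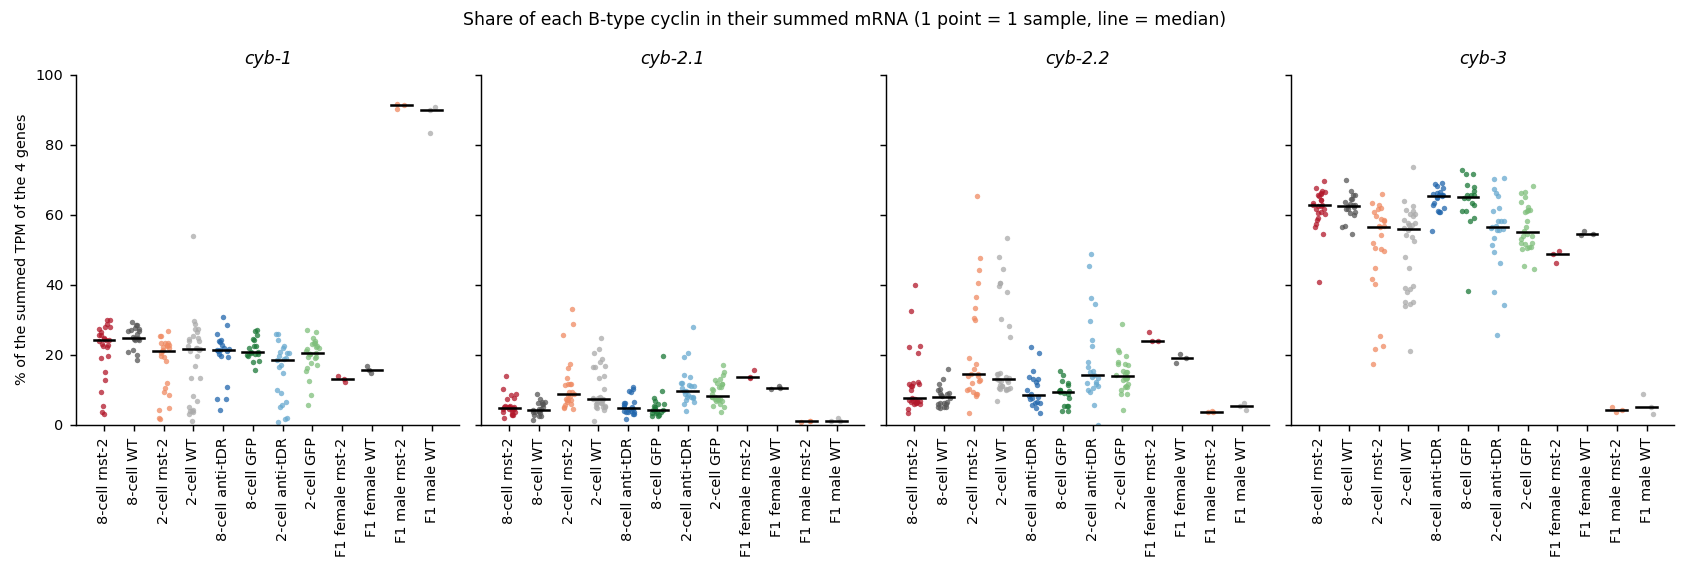
Share of each B-type cyclin in the summed TPM of the 4 genes (%), with 1 point per sample and a line at the median of each group. cyb-3 led in embryos (medians of 54.9% to 65.4%) and in F1 females, and cyb-1 took 83.4% to 91.5% in F1 males.

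Adult sexes differed most in cyb-3, cyb-2.1 and cyb-2.2, while cyb-1 went the other way. cyb-3 was at 429, 513 and 539 TPM in WT-sired F1 females, against 8.65, 16.9 and 19.6 TPM in WT-sired F1 males, a difference of 5.01 ± 0.29 (SE, limma adjusted p = 2.64e-06). cyb-1 was at 129, 149 and 147 TPM in these females, against 256, 300 and 189 TPM in the males (-0.78 ± 0.18, limma adjusted p = 0.00513). cyb-1 was the most abundant member in F1 males and cyb-3 in F1 females, in 3 of 3 pools of each sire. Thus cyb-1 took 90.2% to 91.5% of the B-type cyclin mRNA in rnst-2-sired and 83.4% to 90.7% in WT-sired males. air-1 was second in F1 males, in 3 of 3 pools of each sire.

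Of the members, 8 were higher and 1 lower in WT-sired females than in WT-sired males, with 83.6% of all genes called. Among rnst-2-sired progeny, 9 were higher and 1 lower, with 85.1% of all genes called. cyb-2.1 (4.49 WT-sired, 5.27 rnst-2-sired), cyb-2.2 (3.48 and 4.37), cye-1 (2.44 and 3.21), cdk-1 (2.36 and 2.58), plk-1 (2.15 and 2.44) and cdk-2 (2.11 and 2.81) were the other large differences. air-2 was the least different, at 36.5, 46.5 and 48.1 TPM in WT-sired females against 34.3, 34.2 and 41.7 TPM in WT-sired males (0.24, limma adjusted p = 0.202). Its call in rnst-2-sired progeny (0.61, limma adjusted p = 0.0184) was lost without replicate 1 of the females (adjusted p = 0.0574). The median over all genes was 0.88 for WT-sired and 1.11 for rnst-2-sired progeny. Median-of-ratios scaling moved these medians to -0.06 and 0.0, turned air-2 to -0.64 and -0.46 and ended the call of air-1 in WT-sired progeny, and the counts became 7 higher and 2 lower, and 8 higher and 2 lower. These are whole worms, in which fewer cells of a type and less RNA per cell cannot be told apart.

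Other cell cycle genes gave the setting for these values. Of 80 names in 5 lists, 78 had a row. In WT-sired embryos, 29 of 73 tested were higher and 3 lower at the 8-cell than at the 2-cell stage, with a median of 0.55, while 1682 of all 6490 genes were higher and 605 lower, with a median of 0.37. Without embryos over 300000 TPM of rRNA, the lists had 11 higher and 10 lower of 75 (median -0.01), and all 6605 genes then tested had 938 higher and 1443 lower (median -0.03). cdc-25.2, a phosphatase that activates CDKs, had a median of 34.5 TPM in 8-cell and 13.1 TPM in 2-cell embryos (2.13, limma adjusted p = 0.000309). cit-1.2, a cyclin T gene, differed by 2.05 and cdt-1, a licensing factor of replication, by 2.06. orc-1, a subunit of the origin recognition complex, had a median of 86.9 TPM in 8-cell and 272 TPM in 2-cell embryos and fell by 1.44, and the CDK inhibitor cki-2 fell by 1.10. Of the checkpoint and chromosome separation list 8 of 13 were higher, of the replication list 7 of 15, and of the anaphase-promoting complex list 5 of 12. In rnst-2-sired embryos the counts over all lists were 4 higher and 6 lower of 73, beside 672 higher and 769 lower of all 6652 genes. After GFP they were 2 higher and 11 lower of 74, beside 522 and 1380 of 6395, and after anti-tDR 2 higher and 3 lower of 74, beside 566 and 260 of 6471. Median-of-ratios scaling gave 12 higher and 5 lower of 73 in rnst-2-sired embryos and 18 higher and 9 lower of 74 after GFP. For the lists, the direction with more calls thus turned with the scaling. In rnst-2-sired embryos all genes turned too, with 999 of 6867 higher and fewer lower under that scaling. After GFP all genes did not turn, with 924 higher and 1188 lower of 6380.

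Between sires or injections, these lists had few calls. cdc-25.2 was lower after anti-tDR in 2-cell embryos, with medians of 12.8 TPM after anti-tDR and 23.3 TPM after GFP (-1.75, limma adjusted p = 0.0437). It was 1 of 73 tested. In F1 females, the spindle checkpoint gene san-1 (0.72, limma adjusted p = 0.0456) and the CDK-activating kinase cdk-7 (0.54, adjusted p = 0.0473) were higher in rnst-2-sired than in WT-sired pools, 2 of 73, with 7.18% of all genes called. With median-of-ratios scaling neither these nor cdc-25.2 kept its call, as no gene of the lists was called in either comparison. Between the sexes, 67 of 71 were higher and 1 lower in WT-sired females than in males, beside 4812 higher and 2117 lower of all 8290 genes (83.6% called, median 0.88). With median-of-ratios scaling the lists had 47 higher and 5 lower of 65 (median 1.00), and all genes 2890 higher and 3332 lower of 8291 (median -0.06). Without that scaling, all 15 replication genes were among the higher ones, with rnr-1 (4.69) and pcn-1 (4.65) the most different, and the lower one was cdc-25.4 (-4.87).

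Across the 12 conditions of embryos and adults, the condition means of the members were compared with those of 8502 genes by Pearson's r of mean log2(TPM + 1), as a description. cyb-3 was most like mcm-2 (r = 0.999), a subunit of the replicative helicase, plk-1 most like mei-1 (r = 0.994), a katanin subunit of the meiotic spindle, and cdk-1 most like rad-23 (r = 0.993). The gene most like cyb-2.2 was cyb-2.1 (r = 0.996), a pair that shares reads. Among the members, cyb-3 varied with cdk-1 (r = 0.980) and plk-1 (r = 0.978), whereas cyb-1 and cyb-3 had an r of 0.152. The closest gene to cyb-1 was nep-1, at an r of 0.915. The 12 conditions share tables and fathers, and the adult sexes weigh most in these values.

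Small RNAs antisense to the members were counted in 4 tables and are given in rpm (reads per 1000000 reads), scaled to the library size. In WT sperm, endo-siRNAs against 9 of the 10 members were less abundant than in WT males, and 61.3% of all endo-siRNA rows tested differed. For cdk-1 there were 53.0, 47.2, 38.7 and 50.9 rpm in WT sperm, against 179, 140, 140 and 135 rpm in WT males (-1.65 ± 0.16, SE). For plk-1 there were 26.5, 20.6, 19.2 and 26.999 rpm in sperm, against 125, 104, 79.8 and 84.0 rpm in males (-2.08). For cyb-3 there were 3.22, 2.71, 2.79 and 3.34 rpm in sperm, against 20.1, 19.002, 14.2 and 14.8 rpm in males, the most negative difference of the 10 (-2.50 ± 0.20, SE, edgeR adjusted p = 1.02e-06, Benjamini-Hochberg). In none of these 3 did the groups overlap. Here and in the small RNA comparisons below, how many of all rows had groups that did not overlap was not counted.

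cdk-2 was the member that was not called there. It had 11.8, 8.09, 9.55 and 10.5 rpm in WT sperm, against 14.3, 10.6, 11.1 and 17.6 rpm in WT males (-0.43, edgeR adjusted p = 0.0948). The call of cyb-2.1 (-1.47, edgeR adjusted p = 0.0123) was lost without replicate 3 of WT males (-1.17, adjusted p = 0.0512), with TMM factors and with a replicate block. The median over the members was -2.02 and over all endo-siRNA rows -0.87.

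In rnst-2 del/del males, endo-siRNAs to plk-1, air-2 and cdk-1 were lower than in del/+ males, and those to cye-1 in the fit without pairs. For plk-1 there were 90.2, 149, 111, 119, 166 and 135 rpm in del/del, against 201, 248, 226, 282 and 258 rpm in del/+ males (-0.92 ± 0.17, SE, edgeR adjusted p = 0.00600). For air-2 there were 20.9, 20.4, 23.7, 24.7, 16.6 and 22.4 rpm in del/del, against 33.0, 34.5, 34.0, 29.7 and 32.9 rpm in del/+ males (-0.61, edgeR adjusted p = 0.0225). Neither gene had overlapping groups, and over all rows such separation was not counted. cdk-1 differed by -0.68 (edgeR adjusted p = 0.0310) and cye-1 by -0.99 (adjusted p = 0.0358), and with replicate numbers as pairs cye-1 lost its call (-0.84, adjusted p = 0.0582). Of all endo-siRNA rows 18% were called, and their median was -0.49.

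In cat/cat males, the lower endo-siRNAs were those to plk-1, cdk-1, cyb-3 and air-1. plk-1 had 111, 72.4, 89.9, 69.4, 121 and 111 rpm in cat/cat, against 226, 138, 154, 206 and 219 rpm in cat/+ males (-0.97, edgeR adjusted p = 0.0135). cyb-3 had 16.4, 9.88, 10.2, 9.44, 15.2 and 8.5 rpm in cat/cat, against 22.02, 22.2, 23.8, 28.7 and 18.5 rpm in cat/+ males (-0.99, edgeR adjusted p = 0.0332). These groups did not overlap, which was not counted over all rows. For cdk-1 there were 165, 133, 149, 150.2, 195 and 205 rpm in cat/cat, against 286, 176, 226, 951 and 342 rpm in cat/+ males (-1.25, edgeR adjusted p = 0.0306), where the value of 951 rpm stands apart. Without that library cdk-1 differed by -0.63 (adjusted p = 0.0274), and cye-1 (-0.85, adjusted p = 0.0194) and air-2 (-0.64, adjusted p = 0.0329) were called too. Of all endo-siRNA rows 17.1% were called, and their median was -0.54.

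The calls in both alleles rested on total counts, rRNA included, as the library size. With counts without rRNA or with TMM factors no member was called in either allele, and plk-1 then differed by -0.65 (edgeR adjusted p = 0.0550) and -0.50 (adjusted p = 0.0774) in del/del and by -0.64 and -0.42 in cat/cat males. Leaving out 1 library at a time gave 1 to 4 calls in del/del and 1 to 6 in cat/cat males. plk-1 was called in each of these fits. In del/del males, air-2 lost its call without del/+ replicate 2 or 3 (edgeR adjusted p = 0.0628 and 0.0546), cdk-1 without any library but del/+ replicate 1 and del/del replicates 5 and 6, and cye-1 without any but del/+ replicate 2 and del/del replicates 2 and 5. In cat/cat males, cdk-1 lost its call without cat/cat replicate 1, 2, 3 or 4, cyb-3 without cat/cat replicate 2, 3, 4 or 6 or cat/+ replicate 1 or 3, and air-1 without any library but cat/+ replicates 2, 3 and 4. air-2 was called there without cat/+ replicate 2 as well (adjusted p = 0.0446).

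In cat/cat sperm, endo-siRNAs to cyb-1 were more abundant than in WT sperm and those to plk-1, cdk-1 and cyb-3 less abundant, in rpm without rRNA (scaled to the counts that are not rRNA). cyb-1 had 8.98, 8.48, 7.73 and 8.41 rpm in cat/cat sperm, against 6.31, 3.85, 4.27 and 4.71 rpm in WT sperm (0.82 ± 0.20, SE, edgeR adjusted p = 0.00439). plk-1 had 13.8, 12.8, 18.8 and 15.8 rpm in cat/cat sperm, against 34.8, 26.9, 25.41 and 32.1 rpm in WT sperm (-0.96, edgeR adjusted p = 0.00093). cdk-1 had 36.4, 26.98, 35.8 and 29.96 rpm, against 69.6, 61.6, 51.2 and 60.5 rpm (-0.91, adjusted p = 0.000781). In none of these 3 did the groups overlap, which was not counted over all rows. Of all endo-siRNA rows 46.8% were called. cyb-3 differed by -0.69 (edgeR adjusted p = 0.0245), a call lost without WT replicate 1 or 4 or cat/cat replicate 1, 2 or 3 (adjusted p of 0.0502 to 0.0658). With rRNA kept in the library size, cyb-1 turned to -0.29 and 7 members were lower. The libraries of cat/cat sperm held 3879265 to 5706814 counts without rRNA of 11319131 to 13811572 in all, and those of WT sperm, the same as above, 16803090 to 38651137 of 22041936 to 51191372.

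Against the cat/cat males of the sperm experiment, cat/cat sperm had fewer endo-siRNAs to all 8 members tested, with 72.8% of rows called. The differences were between -0.94 (air-1) and -2.34 (plk-1), and the median over all rows was -1.15. plk-1 had 13.8, 12.8, 18.8 and 15.8 rpm in this sperm, against 65.0, 61.2 and 107 rpm in these males.

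In females, rnst-2 del/del made no callable difference, in rpm without rRNA. None of the 10 members had an unadjusted p under 0.05, the differences lay between -0.09 and 0.16, and 0.0101% of all rows were called. cye-1 had 112, 109, 112 and 114 rpm in del/del, against 122, 124, 120.4 and 90.8 rpm in del/+ females.

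Females carried more endo-siRNAs to several members than males of the same genotype, in rpm without rRNA. In del/+ females cyb-2.1 had 16.3, 20.5, 22.2 and 12.7 rpm, against 1.25, 0.892, 1.96, 2.13 and 0.961 rpm in del/+ males (3.63). cye-1 had 122, 124, 120.4 and 90.8 rpm in females, against 19.4, 13.4, 23.6, 31.04 and 17.9 rpm in males (2.43), and air-2 had 187, 166, 178 and 149 rpm, against 34.3, 35.8, 35.6, 31.5 and 34.2 rpm (2.29). cyb-2.2 (3.25), cyb-3 (1.47), plk-1 (0.66) and cdk-1 (0.57) were also called by edgeR, 7 of 10, with 72.2% of all rows called. Of all 11167 endo-siRNA rows 4940 were higher and 3120 lower in females. The median difference was 0.55 over all rows, near the values of plk-1 and cdk-1, and 1.07 over the members. cdk-1 lost its call without del/+ male replicate 1 or 3 or female replicate 2 or 3, and plk-1 without female replicate 3 (edgeR adjusted p of 0.0526 to 0.112). With TMM factors, and with DESeq2, plk-1 and cdk-1 were not called, and air-1 (-0.58 and -0.51) and cdk-2 (-0.85 and -0.79) were lower. The sexes came from separate tables, so sex and table cannot be told apart.

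**Figure D5:**
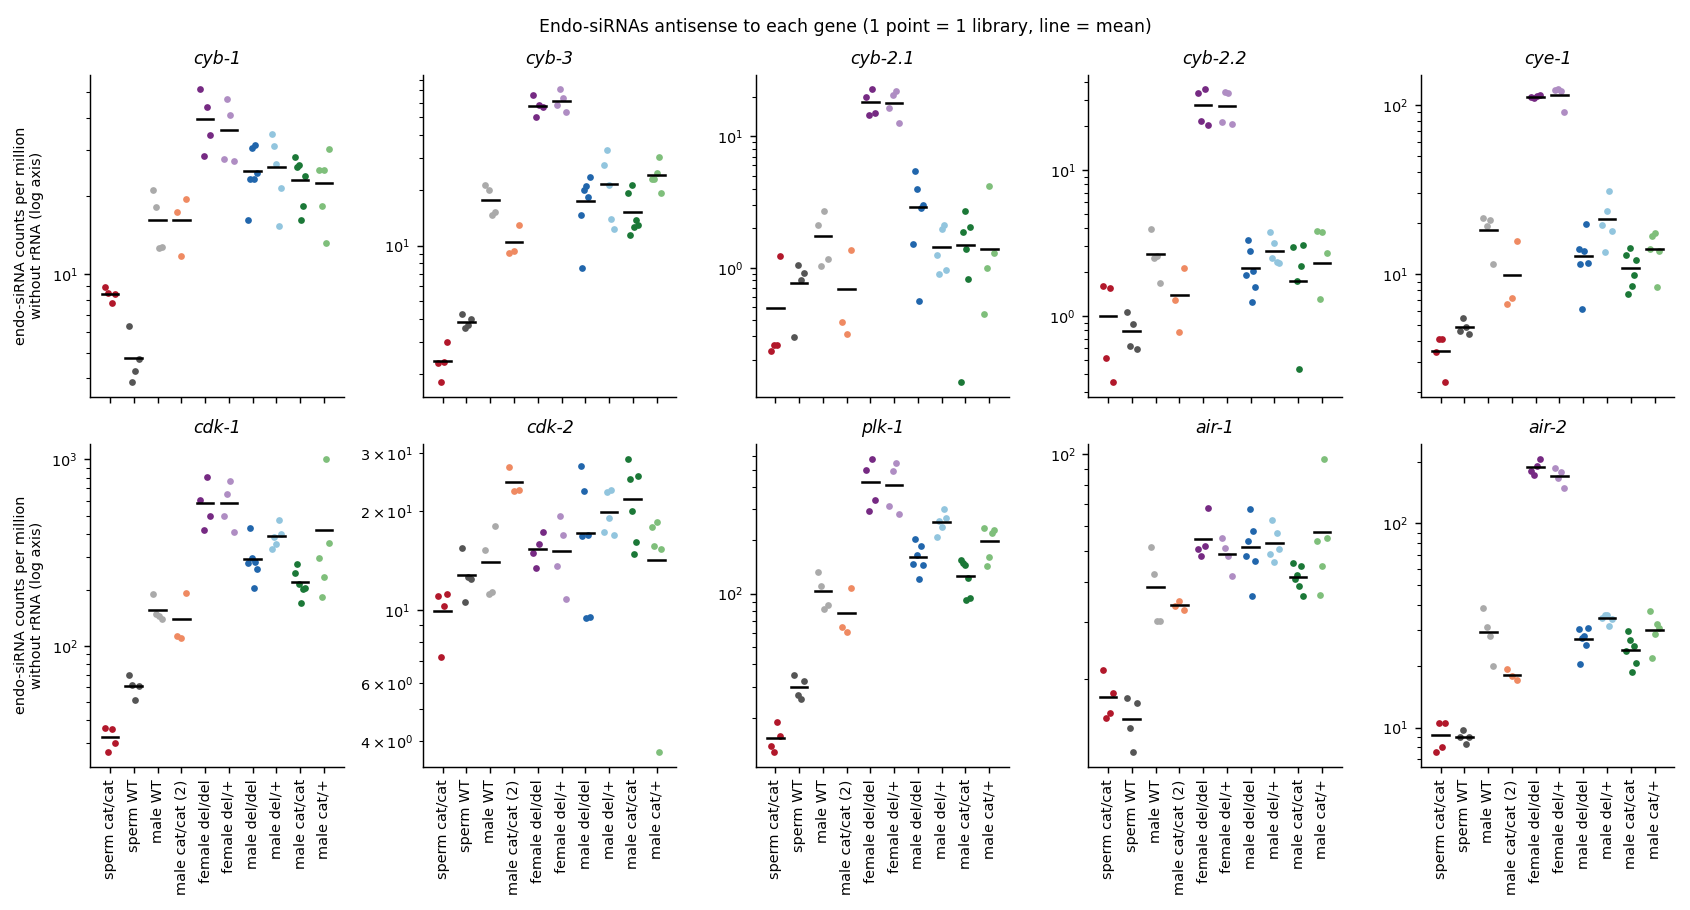
Endo-siRNA level in rpm without rRNA, on a log axis, with 1 point per library and a line at the mean of each group. The label "male cat/cat (2)" marks the cat/cat males of the sperm experiment. Values of 0 cannot be drawn on this axis. The endo-siRNAs to cyb-2.1, cyb-2.2, cye-1 and air-2 were highest in females, and those to cdk-1 and plk-1 were lower in sperm than in males.

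Sense fragments of the members' mRNAs, 18 to 40 nt long, behaved differently from their endo-siRNAs in sperm. They were examined after their counts had been seen. cyb-1 fragments numbered 540, 1597, 2026 and 1691 in WT sperm, against 65, 73, 54 and 63 in WT males, which is 24.5, 63.6, 39.6 and 76.2 rpm against 4.66, 4.19, 3.36 and 3.24 rpm (3.72 ± 0.33, SE, edgeR adjusted p = 1.69e-06). Fragments of 7 of 9 members tested were higher in WT sperm, all but cdk-1 (0.17) and cdk-2 (0.08), and 70.1% of all mRNA fragment rows were called. The median was 1.83 over the members and 1.79 over all fragment rows.

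In cat/cat sperm, cyb-1 fragments were at 222, 259, 224 and 203 rpm without rRNA, against 32.1, 83.1, 52.4 and 90.6 rpm in WT sperm (1.81, edgeR adjusted p = 0.000185), and the groups did not overlap. Fragments of 8 of 9 members were higher there, with 68.8% of fragment rows called, a count that fell to 3 with rRNA in the library size. Against cat/cat males all 8 tested were higher in cat/cat sperm, with 79.8% of rows called, and 2 were with rRNA in the library size. cyb-3 fragments were at 93, 76, 64 and 84 counts in cat/cat sperm, against 5, 1 and 1 in these males.

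cyb-1 fragments were also higher in whole males of both rnst-2 alleles. There were 25.8, 15.6, 15.2, 28.4, 20.9 and 26.95 rpm in del/del, against 2.40, 4.11, 3.12, 12.5 and 0 rpm in del/+ males (2.35 ± 0.61, SE, edgeR adjusted p = 0.0231). There were 11.2, 26.8, 20.0, 33.4, 20.3 and 32.5 rpm in cat/cat, against 2.23, 6.67, 2.26, 0 and 9.33 rpm in cat/+ males (2.53 ± 0.68, SE, edgeR adjusted p = 0.0261). In both alleles the groups did not overlap, which was not counted over all fragment rows. It was the only member called of 5 tested in del/del males, with 5.32% of fragment rows called, and of 6 tested in cat/cat males, with 4.21% called. The adjusted p over the other settings was 1.15e-07 to 0.0595 for del/del and 6.52e-05 to 0.126 for cat/cat males, and the lowest difference among them was 2.04 and 2.23. The call was lost in del/del males with counts without rRNA as library size (0.0507) and without del/+ replicate 1, 2 or 3. In cat/cat males it was lost with counts without rRNA (0.0806), with TMM factors (0.0979) and with a replicate block (0.126). It was also lost there without cat/cat replicate 2, 3, 4 or 6 and without cat/+ replicate 1 or 3. In females, cyb-1 fragments were at 1.22 to 2.45 rpm without rRNA in del/del and 1.36 to 4.53 rpm in del/+ libraries (-0.60, edgeR adjusted p = 0.99994).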

How the data were processed

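STAR alignment to WS245 and RSEM estimation gave the authors' TPM values of mRNA. The deposited values are TPM plus 1, from which 1 was subtracted. Small RNA reads were trimmed by the authors with Trimmomatic and matched with Bowtie 2 to rRNA, then miRNA, tRNA and piRNA. Reads left over were placed with STAR and counted by featureCounts as sense mRNA fragments or antisense endo-siRNAs, and the deposited values are raw counts. Tool versions are not given in the sources used here. 1 column with no sample name was not used.

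limma 3.58.1 (trend) tested log2(TPM + 1) where a gene averaged 5 TPM or more in the samples compared, a scale that understates the change of low genes. edgeR 4.0.16 (quasi-likelihood) tested RNAs that reached 10 counts in a number of libraries equal to the smaller group, after tRNA genes were summed by isoacceptor. Library size was the total count for WT sperm against WT males and for mutant against heterozygous males, and counts without rRNA elsewhere. p-values were adjusted by Benjamini-Hochberg over all genes or RNAs tested, with a threshold of 0.05. Both fits were tested on simulated data. R 4.3.3, Python 3.11.15, numpy 2.4.6 and pandas 2.3.3 were used.

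Members and lists were chosen with earlier results of these data known. By rule, all members are named, with up to 3 called list genes in each direction per comparison and the 3 genes most alike each member, of which a selection is printed. Other settings were DESeq2 1.42.0, TMM factors, the other choice of library size, no filter, a pseudocount of 0.1, a minimum of 1 TPM or none, median-of-ratios scaling, TPM rescaled without the rRNA genes, 1 fit over 4 groups, a replicate block, leaving out each replicate of small groups and leaving out embryos over 300000 TPM of rRNA. The mRNA fragments, and leaving out embryos with under 5000 genes detected or with zygotic markers against their stage, were chosen after seeing the data. Replicate numbers met the criterion for pairs where every pair's deviations correlated above 0.1. This held for del/del and del/+ males alone (5 pairs, r of 0.185 to 0.439). The main values of these males still come from the fit without pairs. The paired fit was run as an alternative setting. p-values measure the spread between these samples, which the labels do not tie to separate cultures.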

Additional observations from a re-analysis of the deposited data

Results flagged for a closer look

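Endo-siRNA values were screened for a library far from the others of its group, over 90 pairs of a gene and a group of 4 to 6 libraries. In 5 of these the highest or lowest library stood apart, and chance gives about 1 in 20. In cat/+ males, replicate 4 had 951 rpm to cdk-1 (5709 counts), where the next library had 342 rpm, and 3.50 rpm to cdk-2 (21 counts), where the next had 14.7 rpm. In WT males, replicate 1 had 179 rpm to cdk-1, where the nearest had 140 rpm. In cat/cat sperm, replicate 4 had 1.23 rpm without rRNA to cyb-2.1 (7 counts), where the next had 0.258. In del/+ females, replicate 4 had 90.8 rpm without rRNA to cye-1 (721 counts), where the nearest had 120.4 rpm.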

How the results depend on the processing

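The number of members called stayed within 1.5 times under 297 alternatives and did not under 45. By scaling, it became 2 with median-of-ratios scaling for the stage effect after anti-tDR. Endo-siRNA calls became 0 with TMM factors or counts without rRNA in del/del and cat/cat males, 2 without a filter in each, and 1 and 0 with DESeq2. With total counts they became 7 for cat/cat against WT sperm. mRNA fragment calls with total counts became 3 and 2 for cat/cat sperm against WT sperm and against cat/cat males. In whole males the 1 fragment call, cyb-1, became 0 with counts without rRNA in both alleles and 0 with TMM factors in cat/cat males.

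The fit over 4 groups gave 1 call for 2-cell anti-tDR embryos and 1 for the stage effect after GFP. Leaving out embryos gave 6 for rnst-2-sired stage (rRNA) and 4 for anti-tDR stage (genes detected). With the replicate block the calls became 4 for the rnst-2-sired stage effect, 3 for F1 females, 1 for endo-siRNAs and 0 for mRNA fragments of cat/cat males. Except in del/del males the samples share only a number, although all 6 F1 female pools correlated best with their own number (r of 0.0752 to 0.2503 per pair). In del/del males the block changed no call but that of cye-1.

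Leaving out 1 library gave 1 to 4 endo-siRNA calls in del/del and 1 to 6 in cat/cat males, 8 to 9 in WT sperm, 3 to 4 for cat/cat against WT sperm, 8 to 8 for cat/cat sperm against males, 5 to 7 in females against males and 0 to 0 in del/del females. For fragments it gave 0 to 1 in either mutant, 7 to 7 in WT sperm, 7 to 8 for cat/cat against WT sperm and 6 to 8 against males. For F1 it gave 0 to 0 between sires in either sex, 9 to 9 (WT-sired) and 9 to 10 (rnst-2-sired) between sexes. Direction changed for air-1 in the WT-sired stage effect with a replicate block (0.15), and for air-2 between sexes with median-of-ratios scaling (-0.64 and -0.46). In cat/cat against WT sperm, total counts turned air-1 (-0.87), air-2 (-1.07) and cyb-1 (-0.29), and air-2 was also below 0 with TMM factors (-0.0314) and DESeq2 (-0.0585), and lay between -0.0448 and 0.114 without 1 library. With total counts, fragments turned for cye-1 (-0.00624) and plk-1 (-0.52) in cat/cat against WT sperm and for air-2 (-0.0734) in cat/cat sperm against males. The cause was not tested. Of 129 values never called, 69 changed sign somewhere, as did 9 of 121 called somewhere.

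TPM keeps no depth, the embryos' collection day is unknown, and cyb-2.1 had too few endo-siRNAs in cat/cat sperm to be tested.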
